A study of Arabidopsis thaliana with 20 samples.

Results

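Transcript levels of 10 genes of the Polycomb and vernalization chromatin machinery were followed in Arabidopsis thaliana meristems. The genes were chosen by name and locus identifier, not by their values, and are 10 of the 27562 loci measured. Earlier results of these data were known when they were chosen. The subunits of Polycomb repressive complex 2 (PRC2) are encoded by *CLF*, *SWN*, *EMF2*, *VRN2*, *FIE* and *MSI1*. *LHP1* encodes a chromodomain protein that reads the mark PRC2 makes, and *VIN3*, *VRN5* and *VEL1* encode the plant homeodomain (PHD) proteins that join PRC2 during vernalization.

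PRC2 places methyl groups on lysine 27 of histone H3, and genes carrying this mark are kept silent through cell division. In plants it holds floral organ genes and embryo genes silent in vegetative tissue. During prolonged cold, VIN3 accumulates and acts with VRN5, VEL1 and the VRN2 form of PRC2 to silence *FLC*, the floral repressor, and the silent state persists after return to warmth. CLF and SWN are alternative methyltransferases, EMF2 and VRN2 are alternative zinc-finger subunits, and FIE and MSI1 are the WD40-repeat subunits shared by the forms of the complex. MSI1 is also a subunit of chromatin assembly factor 1, which deposits histones on newly replicated DNA.

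RNA came from hand-dissected shoot apical meristems (SAM) and inflorescence meristems (IM) of the wild-type accession Col-0 and of *plt3 plt7*, a mutant of the transcription factor genes *PLT3* and *PLT7*. Each of the 4 groups, Col-0 SAM, *plt3 plt7* SAM, Col-0 IM and *plt3 plt7* IM, held 5 libraries of c. 50 meristems pooled per library. SAMs were taken at 7 days post germination (dpg). These seedlings grew under fluorescent light on agar covered by a nylon mesh, and were trimmed of cotyledons and first true leaves and of most, not all, hypocotyl tissue. IMs were taken at 31 to 33 dpg from soil-grown plants under LED light and kept their youngest flower primordia. Harvests fell into 4 groups for the SAM and 3 for the IM. Both were grown in long days at one temperature, and no vernalization treatment is described. Seeds for the SAM plates had a night of cold stratification, while seeds for the IM plants went directly on soil. Tissue therefore goes with age, substrate, light and harvest, and these cannot be told apart.

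Library totals ran from 24.8 to 114.9 M estimated counts, and every pair of replicates differed by more than sampling noise. In TPM, kallisto's abundance unit, which allows for length and depth, *PLT3* read 5.68 to 9.54 in Col-0 SAM against 3.48 to 4.41 in *plt3 plt7* SAM, and 18.5 to 24.7 against 11.3 to 13.7 in the IM. *PLT7* overlapped between the genotypes in both tissues. The floral and leaf markers followed the tissue labels. The 7 floral organ identity genes summed to 0.886 to 4.90 TPM in the SAM and to 902 to 1003 TPM in the IM, and the 6 shoot meristem genes summed to 43.1 to 69.2 TPM in the SAM and to 94.5 to 124 TPM in the IM. That sum moved with tissue, and its part in the differences between tissues was not tested. Its genes did not all rise. By the call defined below, 4 were higher and 1 lower in the IM in Col-0, and 4 higher and 2 lower in *plt3 plt7*. *CLV1* was lower in both genotypes and *CLV3* in *plt3 plt7*. The 6 leaf photosynthesis genes summed to 9813 to 17363 TPM in the SAM and 2277 to 2775 TPM in the IM.

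Sequence is shown for the members in which it bears on a measurement. The files annotate 2 transcripts of *CLF* (AT2G23380; TAIR10.1 chromosome 2, 9955092 to 9960386, plus strand), and their shares are compared below. AT2G23380.1 has 17 exons and 3456 nt. AT2G23380.2 has 12 exons and 2331 nt, starts at 9957014 inside intron 5 of the longer transcript, and has a coding length of 2028 nt against 2709 nt. The first 24 coding bases of the shorter transcript, at chr2:9957048-9957071 on the plus strand, lie in that intron and are held by no exon of the longer one. The capitals mark the annotated start codon.
CLF transcript 2, first coding bases: ATGaacaccgaccatcttatacag

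*VIN3* (AT5G57380; chromosome 5, 23246395 to 23249504, minus strand) is known for cold induction, and its start region is shown because its RNA was nearly absent here. The 150 bases before the annotated start, chr5:23249505-23249654 on the minus strand, overlap no annotated exon. Capitals mark the G-box CACGTG, a palindrome that reads alike on both strands.
VIN3, bases before the start: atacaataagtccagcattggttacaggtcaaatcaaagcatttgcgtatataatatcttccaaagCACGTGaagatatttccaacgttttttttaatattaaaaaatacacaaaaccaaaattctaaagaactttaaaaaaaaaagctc

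The 250 bases before the start of every protein-coding gene were searched on both strands for 4 kinds of motif. The G-box stood in 6.486% of 27443 windows and in 2 of the 10 members, *VIN3* (84 bases before the start) and *SWN* (30 bases before). It was searched for after the *VIN3* window had been read. The site II letters TGGGCC and TGGGCT, found before many genes of dividing cells, stood in 19.182% of windows and in 3 members. *VRN2* and *VEL1* had 1 match each, and *MSI1* (AT5G58230; chromosome 5, 23556012 to 23558245, plus strand) had 2, which are shown with 10 bases on either side and the match in capitals. They lie at chr5:23555915-23555940 and chr5:23555946-23555971, in the first exon of the gene AT5G58220, which runs the other way from a start 10 bases from that of *MSI1*.
MSI1, site II match 87 bases before the start: gtcatctaatTGGGCCttttcataaa
MSI1, site II match 56 bases before the start: ttttcaaaaaTGGGCCttttctttat
The E2F-type letters TTTCCCGC, TTTCCCGG, TTTGGCGC and TTTGGCGG were found in 1.895% of windows and the telobox AAACCCTA in 4.486%, and in no member's window. A match is a description of letters and does not show that a factor binds.

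Levels between genes were compared on the TPM scale, which allows for transcript length. All members but *VIN3* were expressed in every library, and *VIN3* was close to 0. *MSI1* was the highest, at 47.5 ± 3.59 TPM in Col-0 SAM and 91.1 ± 7.48 in Col-0 IM (mean ± SD, n = 5). *VEL1* followed at 33.6 ± 3.15 and 44.0 ± 4.14 TPM. Neither range touched that of the gene ranked next to it in any group. *FIE* and *EMF2* came next in Col-0 SAM, at 23.9 ± 1.47 and 22.6 ± 2.34 TPM, and then *VRN2*, with 15.8 to 22.2 TPM. *VRN5*, *LHP1*, *CLF* and *SWN* were the lowest of the expressed members in Col-0 SAM, at 14.7 ± 1.14, 14.5 ± 0.830, 13.9 ± 1.03 and 12.9 ± 1.03 TPM. From *FIE* downward each gene's range overlapped that of its neighbour in this group. In Col-0 IM the order ran from *EMF2* (30.5 ± 2.24 TPM) through *VRN2*, *FIE*, *VRN5* and *LHP1* (27.0 ± 2.63 TPM) to *CLF* and *SWN*, at 21.9 ± 1.44 and 21.9 ± 1.69 TPM, and each again overlapped its neighbour. The order was near that of Col-0 in *plt3 plt7*, where *MSI1* read 45.6 ± 2.26 TPM in the SAM and 92.1 ± 2.09 in the IM.

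**Figure D1:**
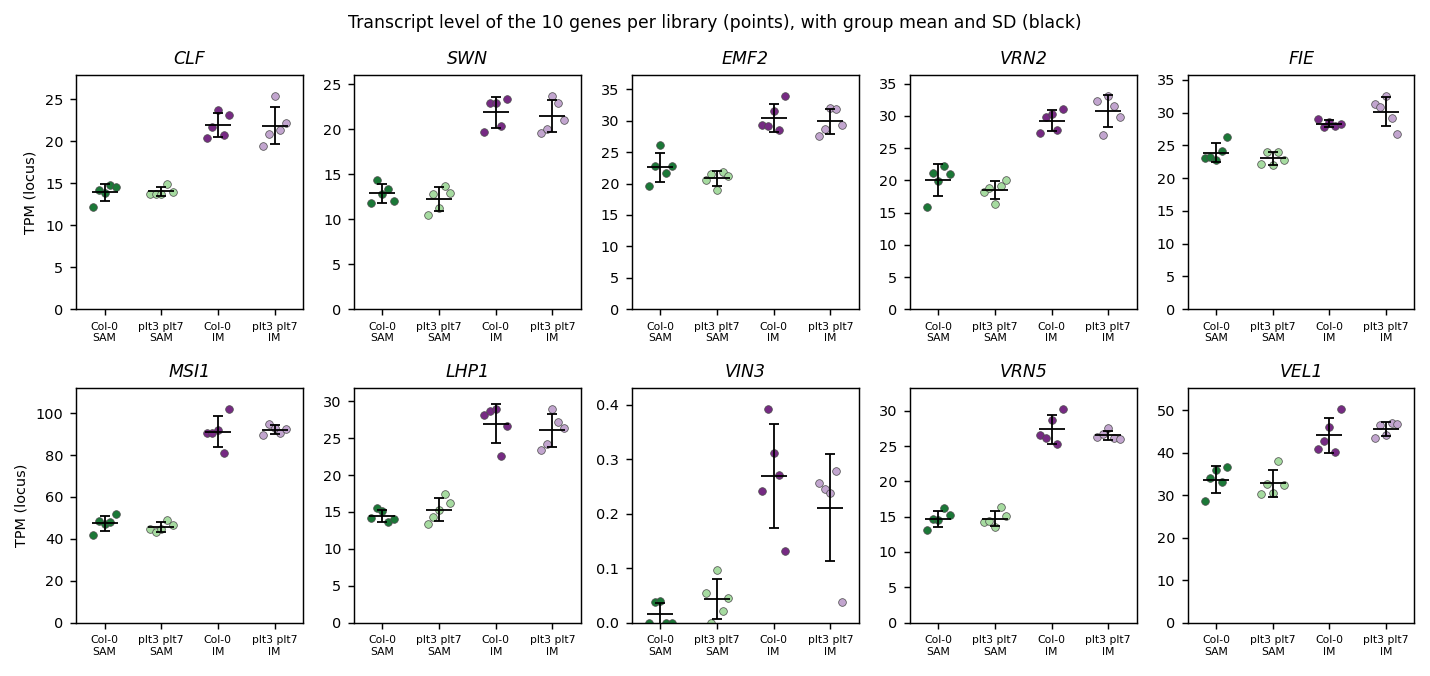
TPM of each gene (y axis, from 0, a separate scale for each gene) in the 4 groups (x axis), with 1 point per library and black bars for the mean and SD of 5 libraries. MSI1 runs from 42.0 to 51.9 TPM in Col-0 SAM and from 80.8 to 102 TPM in Col-0 IM, while VIN3 stays under 0.392 TPM in all 20 libraries.

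The comparison of IM with SAM asks which of these genes change level between the vegetative and the reproductive meristem. *MSI1*, *LHP1*, *VRN5* and *SWN* were higher in the IM in both genotypes, by 1.33-fold to 1.57-fold in counts scaled by median-of-ratios size factors. *VRN2* was called higher in *plt3 plt7* alone, at 1.30-fold, against 1.17-fold in Col-0. No member was called lower, where 30.5% and 31.3% of all genes were. In Col-0, 4 of the 9 members that passed the count filter were called, and 26.7% of all genes tested were called higher, with 57.1% called in either direction. In *plt3 plt7* 5 of 9 were called, beside 26.4% of all genes higher and 57.8% in either direction. The call was DESeq2's Wald test with an adjusted p under 0.1 (Benjamini-Hochberg over all genes tested) and a change of more than 25%. The median log2 change of the 9 members was 0.24 in Col-0 and 0.37 in *plt3 plt7*, and that of all genes 0.02 in each. All 5 IM libraries lay above all 5 SAM libraries for 6 of 9 members in each genotype, beside 28.4% and 26.5% of all genes tested.

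Of the 9 members that passed the filter, *MSI1* changed the most. Its normalised counts were 2442, 2340, 2374, 2397 and 2563 in the 5 Col-0 SAM libraries and 3929, 3663, 3689, 3375 and 3979 in Col-0 IM. In *plt3 plt7* they were 2504, 2296, 2415, 2353 and 2352 in the SAM and 3796, 4017, 3629, 3547 and 3792 in the IM. Every IM library lay above every SAM library in both genotypes. The log2 change was 0.62 ± 0.06 (SE, adjusted p = 2.99e-26, DESeq2) in Col-0 and 0.65 ± 0.05 (adjusted p = 3.48e-35) in *plt3 plt7*. The 12 S phase and division genes of the marker list moved with it. They summed to 450 to 560 TPM in Col-0 SAM and 837 to 1007 TPM in Col-0 IM, and 11 of 12 were called higher in Col-0 (median log2 change 0.55) and 12 of 12 in *plt3 plt7* (median 0.63). Their part in the change of *MSI1* was not tested. In pooled tissue more cells of a type and more RNA per cell cannot be told apart.

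*MSI1* overlaps AT5G58240 on the other strand and shares 6.391% of its 31-base words with that locus. That is a share of sequence, not of reads. Whether the counting used strand is not stated, so how many of its reads could belong to either locus is unknown. AT5G58240 changed by 0.21 ± 0.09 in Col-0 and 0.18 ± 0.07 in *plt3 plt7* on the log2 scale, and the divergent neighbour AT5G58220 by 0.03 ± 0.07 and −0.04 ± 0.08, less than *MSI1* in both genotypes.

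Of the methyltransferases, *SWN* was called higher and *CLF* fell short of the fold minimum. *SWN* (AT4G02020; chromosome 4, 886580 to 891987) read 1451, 1457, 1358, 1414 and 1255 normalised counts in Col-0 SAM and 1752, 1892, 1887, 1792 and 1868 in Col-0 IM. In *plt3 plt7* it read 1244, 1423, 1260.3, 1354 and 1332 in the SAM and 1703, 1766, 1838, 1846 and 1826 in the IM. The groups did not overlap in either genotype, and the log2 change was 0.41 ± 0.06 (adjusted p = 4.95e-12, DESeq2) and 0.44 ± 0.06 (adjusted p = 1.02e-13). *CLF* read 1387 to 1477 normalised counts in Col-0 SAM and 1594 to 1809.85 in Col-0 IM, and 1320.0 to 1465 against 1469.5 to 1835 in *plt3 plt7*. These groups also did not overlap, but the changes of 0.24 ± 0.06 and 0.28 ± 0.07 lay under the minimum of 0.32, at adjusted p = 2.08e-05 and 0.00036 (DESeq2). *CLF* overlaps 2 loci on the other strand and shares 0.804% of its 31-base words with other loci.

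Of the zinc-finger subunits, *VRN2* was called in *plt3 plt7* and *EMF2* in neither genotype. *VRN2* (AT4G16845; chromosome 4, 9476069 to 9479878) read 1041, 1148, 1138, 1256 and 1172 normalised counts in Col-0 SAM and 1339.5, 1352, 1368, 1309.95 and 1362 in Col-0 IM. In *plt3 plt7* it read 1157, 1129, 988, 1031 and 1135 in the SAM and 1536, 1289.5, 1446, 1389 and 1385 in the IM. The groups did not overlap in either genotype. The log2 change was 0.23 ± 0.06 in Col-0 (adjusted p = 0.000236, DESeq2), under the fold minimum, and 0.37 ± 0.07 (adjusted p = 5.68e-07, DESeq2) in *plt3 plt7*. The difference between the genotypes in this change was 0.14 ± 0.10 on the log2 scale (interaction, adjusted p = 0.724, DESeq2), so a difference was not shown. *EMF2* (AT5G51230; chromosome 5, 20823644 to 20829644), the form of this subunit known for holding off flowering in seedlings, changed by 0.09 ± 0.07 in Col-0 (adjusted p = 0.2, DESeq2). In *plt3 plt7* it changed by 0.15 ± 0.06 (adjusted p = 0.0109, DESeq2), under the fold minimum. Its groups overlapped in both genotypes.

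*FIE* (AT3G20740; chromosome 3, 7248809 to 7252452), the other WD40 subunit, was not called in either genotype. It read 1059.5 to 1275 normalised counts in Col-0 SAM and 1046 to 1200.45 in Col-0 IM, and 1096 to 1213 against 1040.1 to 1257 in *plt3 plt7*. The log2 changes were −0.07 ± 0.07 (95% interval −0.21 to 0.07) and 0.03 ± 0.07 (−0.11 to 0.18), so neither interval reached a change of 25%. *FIE* shares 2.609% of its 31-base words with AT3G20730, which it overlaps on the other strand.

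*LHP1* (AT5G17690; chromosome 5, 5827142 to 5829763), the reader of the mark, read 1024, 932, 948, 845 and 861 normalised counts in Col-0 SAM and 1502, 1426, 1429.8, 1173 and 1281 in Col-0 IM. In *plt3 plt7* it read 931, 943, 1011, 1028 and 1013 in the SAM and 1220.0, 1270.3, 1378, 1316 and 1352 in the IM. Every IM library lay above every SAM library of its genotype. The log2 change was 0.57 ± 0.09 (adjusted p = 1.82e-10, DESeq2) in Col-0 and 0.41 ± 0.06 (adjusted p = 1.37e-10) in *plt3 plt7*. The interaction was −0.16 ± 0.12 (adjusted p = 0.741, DESeq2), so a difference between the genotypes was not shown.

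Of the expressed PHD genes, *VRN5* was called higher and *VEL1* was not. *VRN5* (AT3G24440; chromosome 3, 8875784 to 8878481) read 1280.5, 1203, 1243, 1369.5 and 1277 normalised counts in Col-0 SAM and 1915, 1756, 1911, 1789.7 and 1972 in Col-0 IM. In *plt3 plt7* it read 1352, 1296, 1221, 1314 and 1266 in the SAM and 1836, 1902, 1745, 1717 and 1817 in the IM. The groups did not overlap, and the log2 change was 0.55 ± 0.06 (adjusted p = 1.36e-20, DESeq2) in Col-0 and 0.48 ± 0.06 (adjusted p = 1.67e-17) in *plt3 plt7*. *VEL1* (AT4G30200; chromosome 4, 14786532 to 14790501), its relative of the same family, read 3128 to 3482 in Col-0 SAM and 3196 to 3687 in Col-0 IM. Its log2 changes of 0.04 ± 0.06 and 0.11 ± 0.07 were not called, and the groups overlapped in both genotypes.

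More members were called on another scale with another test. On log2(TPM + 1) with limma, 8 of 9 members were called higher in Col-0 and 9 of 9 in *plt3 plt7*, beside 47.1% and 49.9% of all genes tested. On that scale the median of all genes itself lay at 0.29 in Col-0 and 0.32 in *plt3 plt7*, with 9253 genes higher and 4222 lower in Col-0, against 5231 and 5983 on the count scale. Relative to that median, *MSI1* stood at 0.64, *VRN5* and *LHP1* at 0.56, *SWN* at 0.43, *CLF* at 0.33, *VRN2* at 0.24, *EMF2* at 0.13, *VEL1* at 0.09 and *FIE* at −0.05 in Col-0. The sign of *FIE* in Col-0 is thus negative on the count scale and positive on the TPM scale (0.24 ± 0.06), while the ranking of the members was the same on both but for the close pair *LHP1* and *VRN5*. Leaf photosynthesis genes fell in the IM on the count scale (6 of 6 called lower in each genotype, median log2 change −2.97 in Col-0), and the 5 xylem and phloem genes were also all called lower (median −1.82 in each genotype). Their part in the shift between scales was not tested.

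**Figure D2:**
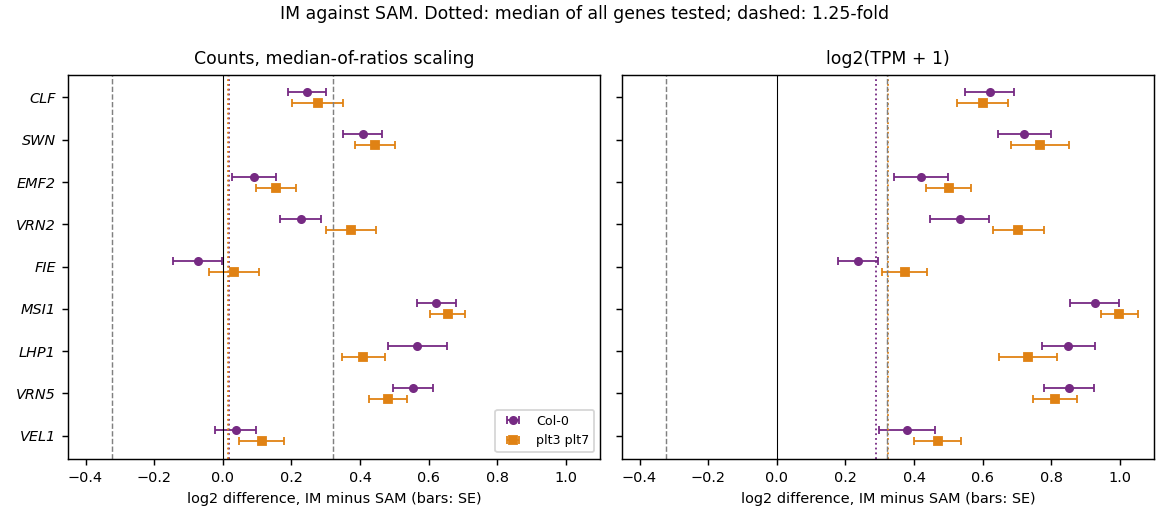
Log2 difference of IM minus SAM (x axis) for 9 genes in Col-0 (circles) and plt3 plt7 (squares), with bars for the SE, on counts scaled by median-of-ratios (left) and on log2(TPM + 1) (right). Dotted lines give the median of all genes tested, 0.02 on the left and 0.29 and 0.32 on the right, and dashed lines the 25% minimum, which MSI1, LHP1, VRN5 and SWN pass in both genotypes on the left.

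*VIN3* was at the limit of detection in the SAM and low in the IM. Its counts were 0, 2, 2, 0 and 0 in the 5 Col-0 SAM libraries and 3, 0, 7, 1 and 4 in *plt3 plt7* SAM. They were 18, 28, 39, 14 and 7 in Col-0 IM and 16, 12, 49, 19 and 2 in *plt3 plt7* IM. Pooled over the group this made 0.0297 CPM (counts scaled to the library total) in Col-0 SAM (95% exact Poisson interval 0.00810 to 0.0761), 0.0898 in *plt3 plt7* SAM (0.0503 to 0.148), 0.527 in Col-0 IM (0.431 to 0.637) and 0.405 in *plt3 plt7* IM (0.329 to 0.494). These intervals cover counting error only. Even in Col-0 IM its mean of 0.269 TPM was above that of only 27.78% of loci.

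The groups of *VIN3* did not overlap between Col-0 IM and Col-0 SAM. It did not pass the filter of 10 counts in 5 libraries in the tissue comparisons, so it was compared by a two-sided exact permutation test of CPM, chosen after seeing these counts. The mean was 0.509 ± 0.187 (SD, n = 5) in Col-0 IM and 0.0284 ± 0.0390 in Col-0 SAM (exact permutation p = 0.00794, adjusted p = 0.0317 over 4 comparisons). In *plt3 plt7* it was 0.398 ± 0.192 in the IM and 0.0865 ± 0.0781 in the SAM (exact permutation p = 0.0317, adjusted p = 0.0635), with overlap through 1 IM library. The ratio of the pooled values was 17.7 (95% counting interval 6.72 to 66.2) in Col-0 and 4.51 (2.60 to 8.36) in *plt3 plt7*. With no filter on low counts DESeq2 gave log2 changes of 3.90 ± 0.90 (adjusted p = 3.35e-05) and 1.93 ± 0.75 (adjusted p = 0.0168). The difference between the genotypes in this change was −2.07 ± 1.11 on the log2 scale (interaction, adjusted p = 0.62, DESeq2), so a difference was not shown. Between genotypes the exact permutation p was 0.198 in the SAM and 0.397 in the IM (adjusted p = 0.265 and 0.397).

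Within the IM *VIN3* was lowest in harvest group 3 in both genotypes. The single library of that group read 0.242 CPM in Col-0, against 0.427 to 0.743 in the other 4. In *plt3 plt7* it read 0.0596 against 0.426 to 0.515. Each is 1 library, so no test within the harvest group was possible. Without that library the *plt3 plt7* groups no longer overlapped and the exact permutation p was 0.00794. This is the smallest p that groups of these sizes can give. It follows from leaving out the library that made the overlap, so it is no further evidence.

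**Figure D3:**
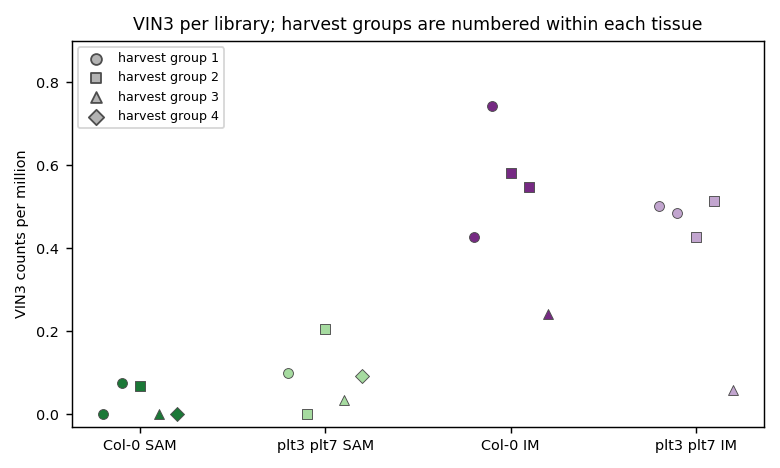
VIN3 CPM (y axis) in each library of the 4 groups (x axis), with the marker shape giving the harvest group, which is numbered separately in SAM and IM. The IM libraries of harvest group 3 (triangles) read 0.242 and 0.0596, under the other 8 IM libraries at 0.426 to 0.743.

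Ratios of members within a library do not depend on the library total. Those of *CLF* to *SWN* and of *EMF2* to *VRN2* compare alternative subunits. *VRN5*, *VEL1* and *VIN3* encode PHD proteins that act together, so their ratios do not compare alternative forms of PRC2. The ratio of *VRN5* to *VEL1* in TPM was 0.405 to 0.492 in Col-0 SAM and 0.602 to 0.648 in Col-0 IM, and 0.431 to 0.471 against 0.556 to 0.625 in *plt3 plt7*. It was thus 1.42-fold higher in the IM in Col-0 and 1.29-fold in *plt3 plt7*, with no overlap in either (exact permutation p = 0.00794 each, adjusted p = 0.0344 over 13 ratio tests, called under 0.1). This p is the smallest that 5 libraries against 5 can give. The ratio was not called between genotypes in the SAM (exact permutation p = 0.5) or in the IM, where it was 0.936 of the Col-0 value in *plt3 plt7* (exact permutation p = 0.0556, adjusted p = 0.144). In the IM it was lower in *plt3 plt7* in each of the 3 harvest groups, with mean ratios of 0.590 against 0.631, 0.591 against 0.625 and 0.556 against 0.602. Permuting genotype within harvest groups, a test added after seeing the data, gave the same exact p of 0.0556 (adjusted p = 0.144). In the SAM it was lower in 1 of 4 harvest groups. The ratio of *EMF2* to *VRN2* was also lower in *plt3 plt7* in 3 of 3 IM harvest groups. Its exact permutation p within harvest groups was 0.167 (adjusted p = 0.271).

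*CLF* and *SWN*, the alternative methyltransferases, ran close to 1 to 1. Their TPM ratio was 0.992 to 1.21 in Col-0 SAM and 0.943 to 1.04 in Col-0 IM (exact permutation p = 0.0714, adjusted p = 0.155). It was 1.08 to 1.31 in *plt3 plt7* SAM and 0.932 to 1.07 in *plt3 plt7* IM (exact permutation p = 0.00794, adjusted p = 0.0344). The ratio of *EMF2* to *VRN2* was 0.973 to 1.31 in Col-0 SAM and 0.980 to 1.09 in Col-0 IM, without a call, and fell to 0.863 of its SAM value in *plt3 plt7* IM (exact permutation p = 0.0159, adjusted p = 0.0516). Without *plt3 plt7* IM replicate 1 the calls of both these ratios were lost, which left the 2 calls of *VRN5* to *VEL1*. Without *plt3 plt7* IM replicate 4 that of *CLF* to *SWN* was lost and 3 calls were left. Whether either ratio changed differently in the 2 genotypes was not tested. The ratio of *VIN3* to *VRN5* could be formed only in the IM, since *VIN3* was 0 in 4 SAM libraries, and lay between 0.00143 and 0.0150.

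The share of the shorter *CLF* transcript was higher in the IM in Col-0. The shorter one, AT2G23380.2, took 59.5, 51.9, 53.8, 57.1 and 54.2% of the locus TPM in the 5 Col-0 SAM libraries and 70.0, 61.2, 61.2, 73.5 and 61.3% in Col-0 IM. The groups did not overlap, and the share was higher by 10.2 percentage points in the IM (exact permutation p = 0.00794, adjusted p = 0.0556 over 7 members). The shorter transcript read 7.69 ± 0.498 TPM in the SAM and 14.3 ± 0.724 TPM in the IM (SD, n = 5) without overlap, and the longer one 6.24 ± 0.753 and 7.63 ± 1.70 TPM with overlap. In *plt3 plt7* the share was 54.0 to 68.8% in the SAM and 54.5 to 73.9% in the IM, with a difference of −0.007 points (exact permutation p = 1). The means in Col-0 and *plt3 plt7* were 55.3 and 62.2% in the SAM (exact permutation p = 0.0714, adjusted p = 0.5). In the IM they were 65.5 and 62.2% (exact permutation p = 0.468, adjusted p = 0.624). Whether the share changed differently between tissues in the 2 genotypes was not tested. These values are kallisto's division of reads that both transcripts share, and the call in Col-0 was lost without Col-0 SAM replicate 2, Col-0 IM replicate 1 or Col-0 IM replicate 4. Mean fragment length was 413 to 432 nt in Col-0 SAM and 351 to 369 nt in Col-0 IM, but 430 nt in IM replicate 4. In *plt3 plt7* it was 346 to 407 nt in the SAM and 287 to 438 nt in the IM. Its part in the shares was not tested. With an offset for the average transcript length, *CLF* as a locus passed the fold minimum in Col-0 (log2 change 0.34).

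**Figure D4:**
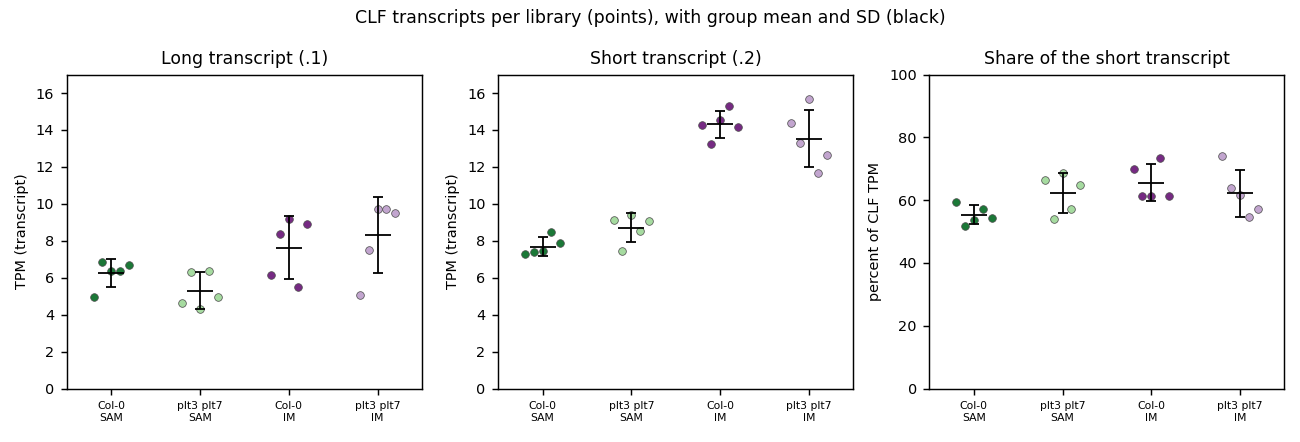
TPM of the long and the short CLF transcript and the short transcript's percent of CLF TPM (y axes, from 0) in the 4 groups (x axis), with points for libraries and black bars for the mean and SD of 5. The short transcript lies at 7.27 to 8.47 TPM in Col-0 SAM and 13.3 to 15.3 TPM in Col-0 IM, and its share overlaps between SAM and IM in plt3 plt7.

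The other members with more than 1 annotated transcript showed no such call. *VRN5* divided its TPM almost evenly over its 2 transcripts, with 42.3 to 63.9% on AT3G24440.2 in Col-0 SAM and 50.4 to 57.8% in Col-0 IM. The main transcript of *VEL1*, AT4G30200.2, took 46.8 to 53.6% and 49.0 to 57.5%. *SWN*, *EMF2*, *VRN2* and *LHP1* put 80.4% or more on a single transcript in every Col-0 library. *FIE* and *MSI1* have 1 annotated transcript each.

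The comparison of *plt3 plt7* with Col-0 asks whether mutation of the 2 PLETHORA genes alters this machinery. No member was called in either tissue or in the interaction. In the SAM 0 of 9 tested members were called by DESeq2, beside 0.453% of all genes tested, and 0 had an unadjusted p under 0.05. In the IM it was 0 of 10, beside 1.53%, and in the interaction 0 of 10, beside 0.354%, again with 0 at an unadjusted p under 0.05. edgeR also called 0 members in all 3. DESeq2 gave *VIN3* no adjusted p between genotypes in the IM, so it could not be called in that fit. The genotypes overlapped for every member in both tissues, while 1.81% and 2.43% of all genes tested did not overlap in the SAM and IM.

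The intervals bound what could have been missed for the 9 expressed members. In the SAM the fold of *plt3 plt7* over Col-0 ran from 0.923 for *EMF2* to 1.07 for *LHP1*, and the 95% intervals of all 9 lay between 0.823 and 1.22. In the IM it ran from 0.959 for *LHP1* to 1.06 for *FIE*, with all intervals between 0.864 and 1.15. No interval reached a 25% change in either direction. Harvest group was a term of these fits. Within single harvest groups the log2 difference between genotypes ran from −0.29 to 0.28 in the SAM and −0.23 to 0.14 in the IM, and its sign held across all harvest groups for 0 of 9 members in the SAM and 2 of 9 in the IM. For *VIN3* the log2 change in the IM was −0.44 ± 0.42 (95% interval −1.26 to 0.38, unadjusted p = 0.293, DESeq2), an interval that leaves changes beyond 25% in either direction possible.

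**Figure D5:**
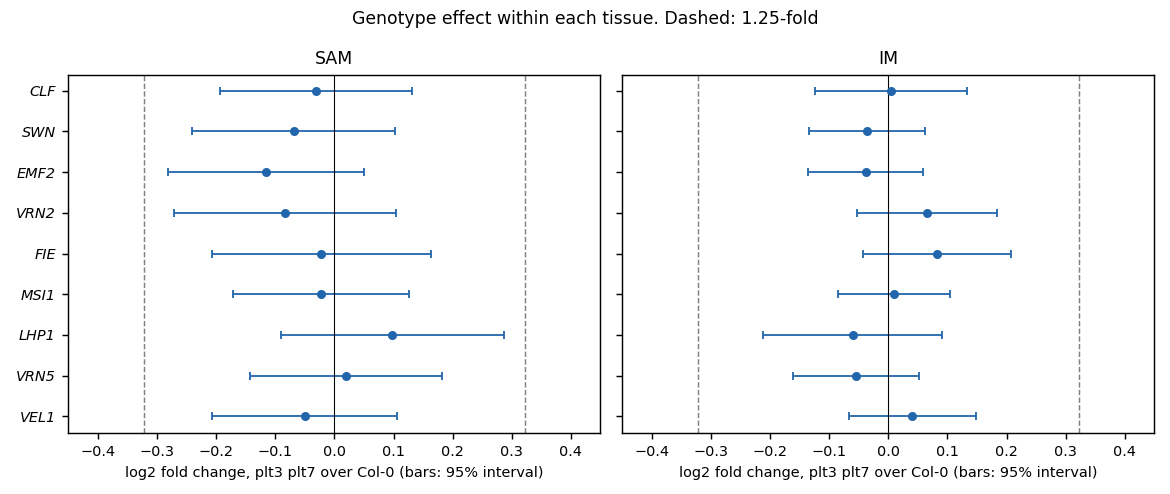
Log2 fold change of plt3 plt7 over Col-0 (x axis) for 9 genes in the SAM (left) and the IM (right), with 95% intervals from DESeq2 and dashed lines at a change of 25%. Every interval holds 0 and lies inside the dashed lines.

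Other genes of the pathway, taken from lists of known function, were counted beside the 26.7% of all genes called higher in Col-0 and the 26.4% in *plt3 plt7*. No list was tested as a whole. Of 14 PRC2 and PRC2-associated genes other than the members 10 passed the filter, and 4 were called higher in Col-0 and 6 in *plt3 plt7*, with none lower. *MSI3* and *MSI4*, WD40 relatives of *MSI1*, rose the most in Col-0, by 0.74 ± 0.07 and 0.70 ± 0.06 on the log2 scale. *PWO1*, which encodes a PRC2-binding protein, rose by 0.38 ± 0.08. *ICU2*, the catalytic subunit of DNA polymerase alpha, rose by 0.33 ± 0.09. In *plt3 plt7* *MSI4* and *MSI3* again rose the most, by 0.75 ± 0.05 and 0.70 ± 0.06. The smallest called changes there were those of *ALP1*, a transposase-derived PRC2 partner, at 0.35 ± 0.10, and *TRB1*, a telobox-binding protein, at 0.37 ± 0.05. The list's median was 0.31 in Col-0 and 0.36 in *plt3 plt7*, beside 0.02 for all genes. *MEA* and *FIS2*, the PRC2 subunits of the seed, read at most 0.0763 TPM in every library, and *VEL3* was listed at 0 in all of them.

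Of 12 PRC1-type and reader genes 11 passed, and 5 were called higher and 1 lower in each genotype. In *plt3 plt7* the 5 became 3 without SAM replicate 3. The list's median was 0.17 in Col-0 and 0.30 in *plt3 plt7*. *EBS* and *SHL*, closely related readers of histone marks that both delay flowering, moved in opposite directions. *EBS* rose by 0.69 ± 0.07 in Col-0 and 0.69 ± 0.05 in *plt3 plt7*, from medians of 46.8 and 46.0 TPM in the SAM to 95.1 and 92.8 TPM in the IM. *SHL* fell by 0.40 ± 0.08 in Col-0 and fell by 0.55 ± 0.06 in *plt3 plt7* on the count scale. On log2(TPM + 1) no gene of this list was called lower in either genotype, and the TPM of *SHL* overlapped between Col-0 SAM (20.9 to 26.1) and Col-0 IM (20.3 to 24.5). *BMI1B*, a RING-finger subunit of PRC1, rose by 0.57 ± 0.08 and 0.66 ± 0.08. *VAL1*, a DNA-binding protein that brings Polycomb proteins to *FLC*, rose by 0.38 ± 0.07 and 0.32 ± 0.07. *VRN1*, a DNA-binding protein needed to keep *FLC* silent after cold, rose by 0.38 ± 0.05 in Col-0, and *EMF1*, a Polycomb partner, by 0.38 ± 0.11 in *plt3 plt7*.

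Of 12 genes known to act against Polycomb silencing 11 passed. In Col-0 5 were called higher and 6 were not called, and in *plt3 plt7* 8 were called higher and 3 were not, with none lower. *JMJ30*, a clock-regulated demethylase of lysine 27, rose by 1.07 ± 0.11 in Col-0 and 1.28 ± 0.09 in *plt3 plt7*, from medians of 29.4 and 27.5 TPM in the SAM to 79.9 and 86.4 TPM in the IM. *JMJ13*, another such demethylase, rose by 0.89 ± 0.07 and 0.91 ± 0.08. *SYD* and *BRM*, chromatin remodelling ATPases, had the smallest called changes in Col-0, at 0.33 ± 0.09 and 0.33 ± 0.07. In *plt3 plt7* the smallest were those of *PKL* and *ATX1*, a histone H3 lysine 4 methyltransferase, at 0.35 ± 0.09 and 0.35 ± 0.08. *PKL* is also known to promote the lysine 27 mark at embryo genes. The list's median was 0.32 in Col-0 and 0.49 in *plt3 plt7*. On log2(TPM + 1) these 3 lists gave 9, 10 and 9 genes higher in Col-0 and none lower, beside 47.1% of all genes higher.

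Known PRC2 target genes went both ways. Of 14, 7 passed, and 6 were called higher and 1 lower in the IM in each genotype. Of all genes tested, 30.5% were called lower in Col-0 and 31.3% in *plt3 plt7*. *AG*, *SEP3*, *STM* and *KNAT1* also stand in the marker lists set beside the tissue labels, so their calls are no separate result. *AG* passed the filter through its IM libraries, with 0 to 6.23 normalised counts in Col-0 SAM. *AG* and *SEP3*, floral organ genes, rose by 9.77 ± 0.51 and 6.23 ± 0.46 on the log2 scale in Col-0. *SEP3* was low but detected in Col-0 SAM, at 0.516 to 3.20 TPM. The smallest called rises in Col-0 were those of *MAF4*, a relative of *FLC*, at 0.43 ± 0.18, and *KNAT1*, a meristem homeobox gene, at 0.47 ± 0.11. In *plt3 plt7* they rose by 0.81 ± 0.14 and 0.35 ± 0.14. *AGL19*, another listed target, did not pass the filter between tissues and could not be called. It read 0.241 to 1.22 TPM in Col-0 SAM and 0 to 0.133 TPM in Col-0 IM, without overlap. In *plt3 plt7* it read 0.431 to 0.861 TPM in the SAM and 0 to 0.177 TPM in the IM. Of the 7 that passed, *FLC*, the target of the vernalization pathway, was the gene called lower. It fell by 3.59 ± 0.18 on the log2 scale in Col-0 and fell by 2.33 ± 0.17 in *plt3 plt7*. Its TPM were 10.4 to 16.8 in Col-0 SAM and 0.984 to 2.05 in Col-0 IM, against 10.7 to 16.2 and 2.38 to 4.23 in *plt3 plt7*. It was higher in *plt3 plt7* than in Col-0 in the IM (log2 change 1.20 ± 0.27, adjusted p = 0.00111, DESeq2), where no member was called.

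In the genotype comparisons the 3 lists of chromatin genes held 0 calls in the SAM, the IM and the interaction by DESeq2. Of the targets, *FLC* and *MAF4* were called higher in *plt3 plt7* IM, *MAF4* by 0.42 ± 0.14 (adjusted p = 0.0837, DESeq2). The call of *MAF4* was lost with edgeR, with the replicate block, without harvest group, with 1 fit over all 20 libraries, with the length offset, at an adjusted p under 0.05, and without any single IM library other than *plt3 plt7* IM replicate 1. *FLC* kept its call in these settings.

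Genes with a pattern over the 20 libraries most like that of 3 members were sought among 17627 others with a mean of at least 50 normalised counts. The 3 were the most changed of those members that passed the filter in Col-0. For *MSI1* they were *MSI4*, which the annotation calls *FVE*, with Pearson's r = 0.9896, *HHP1* (r = 0.9894) and *MAKR2* (r = 0.9891). *MSI4* had means of 76.9 TPM in Col-0 SAM and 157 TPM in Col-0 IM. For *LHP1* they were AT3G06130, AT5G11550 and AT4G24970, with r of 0.9659, 0.9641 and 0.9624. For *VRN5* they were AT1G12330, AT3G48710 and AT5G49100, with r of 0.9863, 0.9844 and 0.9839. All 9 were higher in the IM in both genotypes, and the correlation of log2(normalised count + 1) is a description over libraries that share the contrast of tissues.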

How the data were processed

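RNA-seq of 20 libraries was used as deposited. The authors trimmed reads with fastp v.0.23.4 and assigned them to TAIR10.1 cDNA with kallisto v.0.46.1. The deposited values are estimated counts per transcript, not normalised and not whole, and TPM, which the authors' program scales by effective length and library total. The deposited length and effective length, in nt and of another kind than abundance, were used for fragment length and the length offset. A strand option is not given in the sources used here.

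Estimated counts and TPM were summed per locus, and counts were rounded. DESeq2 1.42.0 in R 4.3.3 (Wald test, median-of-ratios) was run on loci with at least 10 counts in at least 5 libraries of a fit, without covariate between tissues and with harvest group between genotypes. The harvest term and the change of 25% follow the study's methods, which describe comparisons of genotype. The fits between tissues and the filter were set here. A call needed an adjusted p under 0.1 and a change of more than 25%. Alternatives were edgeR 4.0.16 (quasi-likelihood), TMM factors, limma on log2(TPM + 1), no filter, adjusted p under 0.05, no minimum fold, a length offset, a replicate block, no harvest group, 1 fit over both tissues and genotypes, and omission of single libraries in turn. Ratios and transcript shares were compared by exact permutation over libraries with scipy 1.17.1. Of 16 planned ratio tests 13 could be formed. A permutation within harvest groups was added after seeing the data. Likeness was searched for the 3 members most changed in Col-0 among those that passed the filter. The fits were tested on simulated data. Replicate labels name separate samples, but separate plants are not stated beyond pooled meristems, so p-values measure the spread between these samples. The members, lists and rules for naming genes (all members, *FLC*, and the 2 largest and 2 smallest called changes per list and comparison) were chosen with earlier results of these data known. *SHL*, *MEA*, *FIS2*, *VEL3*, *AGL19*, *STM*, *WUS*, *CLV1* and *CLV3* were named after their values were seen. Reads carried no molecular identifiers.

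Sequences came from the TAIR10.1 genome. Of 48266 transcripts in the files 48148 were found in its annotation, and 99.572% of these had the same length. Replicate numbers did not pair the libraries.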

Additional observations from a re-analysis of the deposited data

Results flagged for a closer look

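Among 40 sets of 5 libraries (10 members in 4 groups), 2 held a library far from the others, where chance flags about 1 in 20 sets. *EMF2* read 2351 normalised counts in Col-0 SAM replicate 3, against 1948 to 2052 in the other 4. *VIN3* read 1.87 normalised counts in *plt3 plt7* IM replicate 5, against 13.4 to 16.1 in the others. It is the only *plt3 plt7* IM library of its harvest group, and whether the harvest had a part was not tested.

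The genotype effect on *FLC* differed between the tissues by 1.30 ± 0.23 on the log2 scale (interaction, adjusted p = 5.09e-05, DESeq2), with *plt3 plt7* above Col-0 in the IM and not in the SAM. It was called in 28 of 28 alternative fits, at 1.16 to 1.45 on the log2 scale.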

How the results depend on the processing

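Between tissues, *MSI1*, *LHP1*, *VRN5* and *SWN* were called in all 18 count-based alternatives in both genotypes, at log2 changes from 0.37 to 0.66 in Col-0, and *VRN2* in all 18 in *plt3 plt7*. On log2(TPM + 1) the count rose from 4 to 8 in Col-0 and from 5 to 9 in *plt3 plt7* with limma, where scale and test changed together. The cause was not tested. Leaving out 1 library gave 4 to 4 members in Col-0 and 5 to 6 in *plt3 plt7*, and 0 to 0 in the comparisons of genotype and the interaction. Of 983 alternative values of single members 969 kept their side of the threshold and direction, 14 passed the threshold newly and 0 reversed, while 23 values called in neither setting changed sign. No call of a member changed under the replicate block, which gave 4 and 5 members between tissues and 0 between genotypes. It took the higher calls of the PRC2-associated list from 4 to 3 in Col-0, those of the PRC1-type list from 5 to 4 in *plt3 plt7*, and those of the targets between genotypes in the IM from 2 to 1. Every sample correlated best with its own number in no pair of groups.

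Ratios with a call numbered 2 to 5 when 1 library was left out and 4, as before, with genotype permuted within harvest groups, and transcript shares in Col-0 0 to 2. At an adjusted p under 0.05 the *CLF* share was no longer called, leaving 0. The number of all genes called between genotypes, on which the background shares rest, ran from 87 in the SAM to 5 with edgeR, 51 with the length offset, 50 at an adjusted p under 0.05, 134 without harvest group and 149 with the replicate block. In the IM it ran from 297 to 146 with edgeR and 499 with no minimum fold, and in the interaction from 72 to 11 with edgeR and 143 with the replicate block. With 1 library left out it ran from 15 to 172 in the SAM, 190 to 479 in the IM and 39 to 240 in the interaction. With 1 library left out, higher calls in Col-0 and *plt3 plt7* were 3 to 5 and 5 to 6 in the PRC2-associated list, 5 to 5 and 3 to 6 in the PRC1-type list, 4 to 6 and 6 to 8 among genes acting against Polycomb, and 5 to 6 and 4 to 6 among targets. Without the minimum fold the first 3 lists had 7, 9 and 9 higher calls in Col-0, *plt3 plt7* and Col-0.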
